A study of Mus musculus with 10 samples.

Results

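The oligoadenylate synthetase (OAS) family was examined in whole mouse lung by RNA-seq. The 8 genes described are those whose name in the authors' table was Oas1a, Oas1b, Oas1c, Oas1g, Oas2, Oas3, Oasl1 or Oasl2, out of 54532 genes listed, and each had 1 entry. The table held 12 genes of the family in all. The other 4 were Oas1d, Oas1e, Oas1f and Oas1h, and their levels are given with those of the Oas1 genes. Lungs came from wild-type C57BL/6J mice of 2 groups of 5. In the increased pulmonary flow (IPF) group, pups were anesthetized with isoflurane at P7 and a needle was passed from the abdominal aorta into the inferior vena cava, which leaves an aortocaval fistula and sends more blood through the lungs. The sham group had the same anesthesia and laparotomy, also at P7, with the vessels exposed but not punctured. All lungs were collected at P30, and each value comes from the whole tissue, so it is a mean over every cell type in the lung. The comparison asks how the lung transcriptome of a young animal differs when its pulmonary blood flow has been raised since infancy. Oas1a, Oas1g, Oas2 and Oas3 had already been singled out on these same samples as part of an antiviral pattern, so their direction here is not independent evidence.

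OAS proteins are sensors of double-stranded RNA. When they bind it, the active members join ATP into short 2′-5′-linked oligoadenylates, and these set off the decay of viral and cellular RNA, which slows protein synthesis. Most of the genes are transcribed at a low level at rest and are induced by interferons through a complex with Stat2 and Irf9, which binds interferon-stimulated response elements near the gene start. In the mouse the Oas1 gene is multiplied into a row of copies, only some of which make an active enzyme, and the Oasl proteins carry ubiquitin-like domains at their end.

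The number of reads on genes, recovered from the FPKM values (fragments scaled by gene length and library depth), was between 16250190 and 19026843 in the IPF group and between 15483046 and 17818542 in the sham group. Markers of lung epithelium, such as the surfactant genes, were abundant in each lung, with a summed FPKM of 20757 or more. The groups also differed in ways the labels do not give. Xist, which is transcribed in females, was between 26.8 and 43.2 FPKM in the IPF lungs and between 0.0301 and 0.0767 in the sham lungs, and the Y-linked gene Ddx3y was at 0 in each IPF lung and between 14.3 and 21.4 FPKM in the sham lungs. The methods state that pups of both sexes were used. Of 13 circadian clock genes, 12 passed the test described below, 3 higher and 9 lower in the IPF group, and Dbp, an output gene of the clock, averaged 2.26 ± 0.707 against 26.4 ± 2.61 FPKM (SD, n = 5 each). Surgery, sex and the phase of the clock at collection cannot be told apart in any result that follows.

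All 8 genes lie on chromosome 5 (GRCm38) in 2 groups. Oasl2 (chr5:114896936-114912234) and Oasl1 (chr5:114923240-114937915) are neighbours on the plus strand. Oas2 (chr5:120730333-120749853), Oas3 (chr5:120753098-120777661), Oas1c (chr5:120800194-120812514), Oas1g (chr5:120876142-120887613) and Oas1a (chr5:120896256-120907521) are on the minus strand, and Oas1b (chr5:120812635-120824163) is on the plus strand. Oas1c and Oas1b lie head to head, with 120 bases between their starts. Start windows from RefSeq (GRCm38.p6, 250 bases before to 50 bases after the start) were at hand for 6 of the 8 genes, all but Oas1b and Oas2. They were searched on both strands for GAAANNGAAA, the core letters of the interferon-stimulated response element, which occur in 1131 of all 32851 windows (3.44%). The letters were found in 4 of the 6 windows, those of Oas1a, Oas1g, Oas3 and Oas1c, and not in those of Oasl1 and Oasl2. The stretches around them are shown because the genes that carry them differ in how far they moved. The capitals mark the matches, and each stretch is written 5′ to 3′.
Oas1a, minus strand, chr5:120907500-120907575: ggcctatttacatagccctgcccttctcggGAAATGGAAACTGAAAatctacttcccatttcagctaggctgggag
Oas1g, minus strand, chr5:120887586-120887661: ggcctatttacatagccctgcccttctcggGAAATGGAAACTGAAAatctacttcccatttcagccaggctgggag
Oas1b side of the Oas1c window, plus strand, chr5:120812583-120812658: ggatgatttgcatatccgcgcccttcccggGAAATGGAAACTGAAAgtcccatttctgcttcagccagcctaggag
Oas3, minus strand, chr5:120777695-120777764: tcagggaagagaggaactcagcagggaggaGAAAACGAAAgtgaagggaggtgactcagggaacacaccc

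The Oas1a and Oas1g stretches had the same base at 75 of 76 positions. In each, 2 matches overlapped by 4 bases into a run of 16, with 4 bases between it and the start site of the Oas1a window and 2 between it and that of Oas1g. The same 16 letters stood in the window of Oas1c, but on the opposite strand, with 98 bases between them and the start site of that window. Read in the direction of Oas1b, they stood with 6 bases between them and the start of Oas1b in the table, and that stretch had the same base as Oas1a at 57 of 76 positions. These 16 letters occurred in 7 of the 32851 windows (0.0213%), and the other genes with them were Apol9a and Apol9b. The single Oas3 match had 65 bases between it and the start site of its window. These distances hold only for the start sites that the windows use, at 120907525 for Oas1a, 120887613 for Oas1g, 120812514 for Oas1c and 120777659 for Oas3. The RefSeq gene models of Oas1a, Oas1c and Oas3 begin farther upstream, at 120907544, 120812540 and 120777684, so by that model nearly all of the Oas1a run lies inside the gene. A match of letters is a description of the sequence, and binding was not measured.

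In the IPF group, 5 of the 8 genes rose and none fell. These were Oas1a, Oas1g, Oas2, Oasl1 and Oasl2, at an adjusted p under 0.05 from limma, fitted over 20448 genes on log2(FPKM + 0.1). Over all genes tested, 3.71% passed that limit with a higher level in the IPF group and 2.14% with a lower level. At an unadjusted p under 0.05, 7 of the 8 were higher and 0 lower, where 11.2% and 8.3% of all genes were. Limma voom on the recovered reads called 6 higher and 0 lower at the same adjusted limit, where it called 4.12% and 3.05% of all genes. With a log2 fold change above 1 required as well, 3 genes passed (Oas1a, Oas1g and Oas2), where 0.68% of all genes did so with a higher level. In 6 of the 8, the 5 genes above and Oas3, every IPF lung was above every sham lung, a pattern seen in 4.52% of all genes. The median log2 fold change of the 8 genes was 0.86, beside 0.0016 for all genes tested. All 8 had a mean FPKM of at least 0.1, the limit for being tested. In whole tissue, fewer cells of a type and less RNA per cell cannot be told apart.

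**Figure D1:**
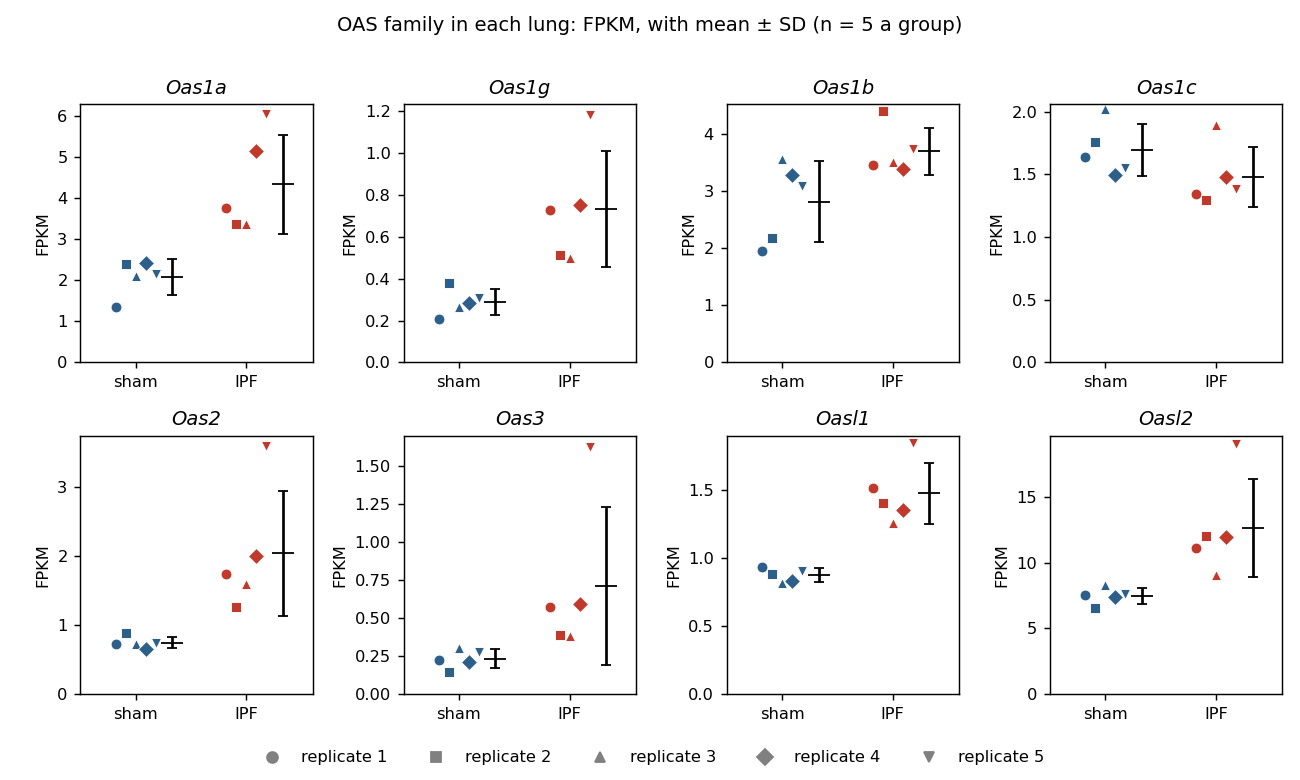
FPKM of each OAS gene (vertical axis, from 0) in each lung of the sham and IPF groups (symbols: replicate numbers 1 to 5), with the mean and SD beside the points (n = 5 a group). The groups do not overlap in 6 genes, while those of Oas1b and Oas1c do, and IPF replicate 5 is the highest lung in the same 6 genes.

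Oas1a encodes the main active small OAS enzyme of the mouse. Its level was 3.77, 3.37, 3.37, 5.15 and 6.06 FPKM in IPF replicates 1 to 5 and 1.35, 2.40, 2.11, 2.42 and 2.16 FPKM in sham replicates 1 to 5. The lowest IPF lungs were above the highest sham lung, and sham replicate 1 was well below the other sham lungs. The means were 4.34 ± 1.21 and 2.09 ± 0.434 FPKM (SD, n = 5 each), and the fitted log2 difference was 1.01 (SE 0.20, limma adjusted p = 0.0134). That is just above the fold limit of 1, and it was 0.87 without sham replicate 1 and 0.88 without IPF replicate 5, with limma adjusted p of 0.0208 and 0.0161. The values rest on 106 to 202 reads per IPF lung and 42 to 81 per sham lung.

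Oas1g, the copy next to Oas1a and closest to it in sequence, was lower in every lung. It was at 0.728, 0.513, 0.497, 0.750 and 1.18 FPKM in the IPF lungs and at 0.207, 0.381, 0.266, 0.282 and 0.308 FPKM in the sham lungs, in the order of the replicates. The groups did not overlap, with IPF replicate 5 highest and sham replicate 1 lowest. The means were 0.734 ± 0.277 and 0.289 ± 0.0635 FPKM (SD, n = 5 each), with a fitted log2 difference of 1.06 (SE 0.24, limma adjusted p = 0.0240). Only 8 to 16 reads per sham lung and 20 to 49 per IPF lung stood behind these values. The call was lost on leaving out any of 5 lungs, with a limma adjusted p of 0.0579 without IPF replicate 1, 0.0628 without IPF replicate 4, 0.0526 without sham replicate 1, 0.0574 without sham replicate 3 and 0.0516 without sham replicate 4.

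Oas1a and Oas1g are alike enough for reads to be assigned to either. Of all stretches of 150 bases (the read length) in the coding transcripts of Oas1g, 30.1% also occurred in Oas1a, and 18.6% of those of Oas1a occurred in Oas1g. The methods give paired reads, and these shares take no account of the mate of a read. None of the other 6 genes shared such a stretch with any of the 12 genes of the family. The summed reads of Oas1a and Oas1g were 126 to 251 per IPF lung and 50 to 97 per sham lung, with no overlap. This sum does not depend on the assignment only if each shared read was counted for a single gene. How shared reads were counted is not given in the sources used here. In FPKM, where the same read counts for more in the shorter Oas1a, the sum was 5.08 ± 1.47 FPKM in the IPF group and 2.38 ± 0.486 in the sham group (SD, n = 5 each), 2.14-fold higher, with no overlap. The ratio of Oas1a to Oas1g was 6.10 ± 0.877 and 7.26 ± 0.972, and its groups overlapped.

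The remaining Oas1 genes of the set, Oas1b and Oas1c, did not pass the test. Oas1b, which in many laboratory strains encodes a truncated protein and is annotated in the table as a polymorphic pseudogene, was at 3.45, 4.40, 3.50, 3.39 and 3.75 FPKM in the IPF lungs and at 1.95, 2.18, 3.56, 3.29 and 3.09 FPKM in the sham lungs. Sham replicates 1 and 2 were low, sham replicate 3 was within the IPF range, and 2 of the 5 IPF lungs were above every sham lung. The means of 3.70 ± 0.414 and 2.82 ± 0.709 FPKM (SD, n = 5 each) went with a fitted log2 difference of 0.41 (95% confidence interval 0.05 to 0.77, limma adjusted p = 0.184).

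Oas1c, for which no enzyme activity is known, was the only gene of the 8 with a lower mean in the IPF group. It was at 1.34, 1.30, 1.89, 1.48 and 1.39 FPKM in the IPF lungs and at 1.64, 1.76, 2.02, 1.498 and 1.55 FPKM in the sham lungs. The ranges overlapped through IPF replicate 3, and 4 of the 5 IPF lungs were below every sham lung. The means were 1.48 ± 0.240 and 1.69 ± 0.207 FPKM (SD, n = 5 each), and the fitted log2 difference was -0.19 (95% confidence interval -0.47 to 0.09, limma adjusted p = 0.460). A change in Oas1c as large as the fitted one of any of the 5 genes that rose lies outside this interval. The ratio of Oas1b to Oas1c, the head-to-head neighbours, was 2.56 ± 0.567 in the IPF group and 1.68 ± 0.448 in the sham group. The ratios overlapped and were not tested.

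Of the 4 remaining Oas1 genes in the table, Oas1d and Oas1f had no read in any lung. Oas1h averaged 0.0264 ± 0.0277 FPKM in the IPF group and was at 0 in the sham group. Oas1e averaged 0.0484 ± 0.0609 and 0.188 ± 0.0998 FPKM (SD, n = 5 each), from at most 10 reads per lung, and did not pass (limma adjusted p = 0.158).

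Oas2 and Oas3 encode the larger enzymes, built of repeated OAS units, of which Oas3 has the highest affinity for long double-stranded RNA. Oas2 was at 1.74, 1.27, 1.59, 2.00 and 3.59 FPKM in the IPF lungs and at 0.722, 0.877, 0.728, 0.648 and 0.737 FPKM in the sham lungs. The sham lungs lay close together and every IPF lung was above them, with IPF replicate 5 far above the rest. The means were 2.04 ± 0.909 and 0.742 ± 0.0833 FPKM (SD, n = 5 each), with a fitted log2 difference of 1.26 (SE 0.23, limma adjusted p = 0.00874). Without IPF replicate 5 it was 1.04 (limma adjusted p = 0.00247).

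Oas3 had the largest ratio of group means, 3.08, and did not pass the test. Its level was 0.573, 0.390, 0.382, 0.590 and 1.62 FPKM in the IPF lungs and 0.223, 0.142, 0.300, 0.212 and 0.278 FPKM in the sham lungs. Every IPF lung was above every sham lung, but IPF replicate 5 was far above the other IPF lungs and the spread was wide. The means were 0.712 ± 0.519 and 0.231 ± 0.0618 FPKM (SD, n = 5 each), with a fitted log2 difference of 1.14 (SE 0.34, 95% confidence interval 0.39 to 1.88, limma adjusted p = 0.0783). Without IPF replicate 5 its fitted log2 difference was 0.82 (limma adjusted p = 0.0650). On the recovered reads, limma voom gave 1.44 with an adjusted p of 0.0410, and with weights for the quality of each lung limma gave 1.08 with an adjusted p of 0.0431.

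Oasl1 and Oasl2 encode the OAS-like proteins. Oasl1 makes no oligoadenylates and is known as a brake on the translation of Irf7, a driver of interferon production. Oasl1 was at 1.51, 1.40, 1.26, 1.35 and 1.84 FPKM in the IPF lungs and at 0.930, 0.877, 0.812, 0.829 and 0.905 FPKM in the sham lungs. Both groups were tight and well apart. The means of 1.47 ± 0.226 and 0.871 ± 0.04999 FPKM (SD, n = 5 each) went with a fitted log2 difference of 0.69 (SE 0.12, limma adjusted p = 0.00841).

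Oasl2, which has kept its enzyme activity, was the most abundant gene of the family in each lung. It was at 11.1, 12.0, 9.09, 11.9 and 19.0 FPKM in the IPF lungs and at 7.56, 6.52, 8.27, 7.39 and 7.60 FPKM in the sham lungs, from 739 to 2147 reads per lung. The groups did not overlap, with IPF replicate 3 nearest to the sham lungs. The means were 12.7 ± 3.76 and 7.47 ± 0.627 FPKM (SD, n = 5 each), and the fitted log2 difference was 0.71 (SE 0.16, limma adjusted p = 0.0242). The limma adjusted p was 0.0548 without IPF replicate 2, 0.0545 without IPF replicate 4, 0.0604 without sham replicate 2 and 0.0535 without sham replicate 4.

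**Figure D2:**
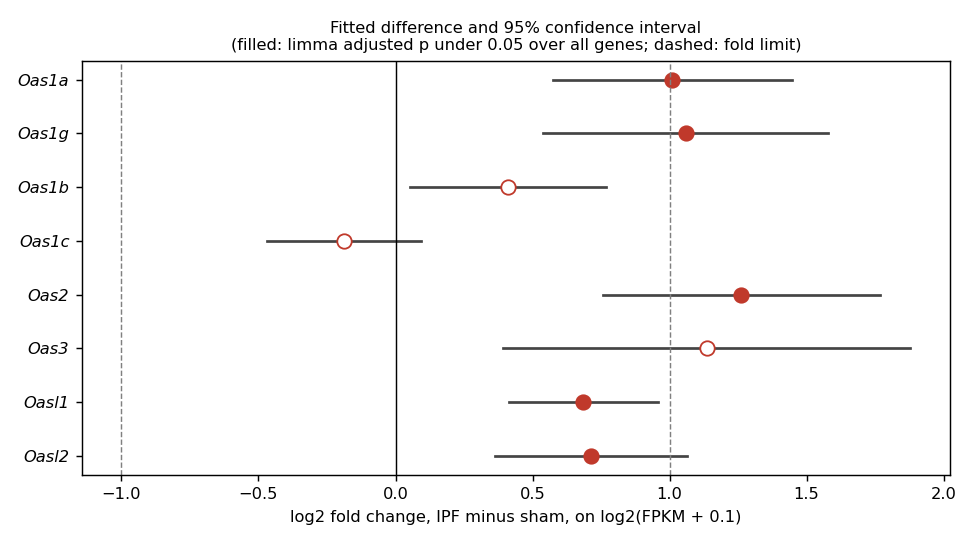
Fitted log2 fold change of each OAS gene, IPF minus sham, on log2(FPKM + 0.1) (horizontal axis), with its 95% confidence interval. Filled points passed limma's adjusted p of 0.05 over all genes, dashed lines mark a log2 fold change of 1 in either direction, and only Oas1c lies below 0, at -0.19.

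FPKM is scaled by gene length, so levels can be set side by side between the genes. In the sham group the order of mean FPKM was Oasl2, Oas1b, Oas1a, Oas1c, Oasl1, Oas2, Oas1g and Oas3. In the IPF group it was Oasl2, Oas1a, Oas1b, Oas2, Oas1c, Oasl1, Oas1g and Oas3, so Oas2 moved up past Oas1c and Oasl1. The sham ranges of Oas1b and Oas1a, of Oas1a and Oas1c, of Oasl1 and Oas2, and of Oas1g and Oas3 overlapped, as did the IPF ranges of every pair of neighbours from Oas1a down to Oas3 in the IPF order except Oasl1 and Oas1g. Oasl2 was apart from all others in both groups.

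The summed FPKM of the 8 genes was 24.3, 24.7, 21.6, 26.6 and 38.5 in the IPF lungs and 14.6, 15.1, 18.1, 16.6 and 16.6 in the sham lungs. The groups did not overlap. The mean sum was 27.1 ± 6.59 against 16.2 ± 1.38 (SD, n = 5 each), 1.67-fold higher in the IPF group. With IPF replicate 5 and sham replicate 1 both left out, a choice made after seeing the data, the ratio was 1.46. Over the 4 Oas1 genes alone the sum was 10.3 ± 1.33 against 6.89 ± 1.08, 1.49-fold higher, again with no overlap. Oasl2 made up 46.2% of the sum in both groups, and without it the sum of the other 7 was 14.5 ± 2.91 against 8.73 ± 1.04 FPKM. The share of Oas1c was 5.75% ± 1.87 in the IPF group and 10.5% ± 1.20 in the sham group, with no overlap, while that of Oas2 was 7.31% ± 1.49 and 4.62% ± 0.772, with overlap. A share falls when the other genes of the sum rise, and the FPKM of Oas1c itself overlapped between the groups. No test was made on sums or shares, because the genes were chosen with results of these data known.

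**Figure D3:**
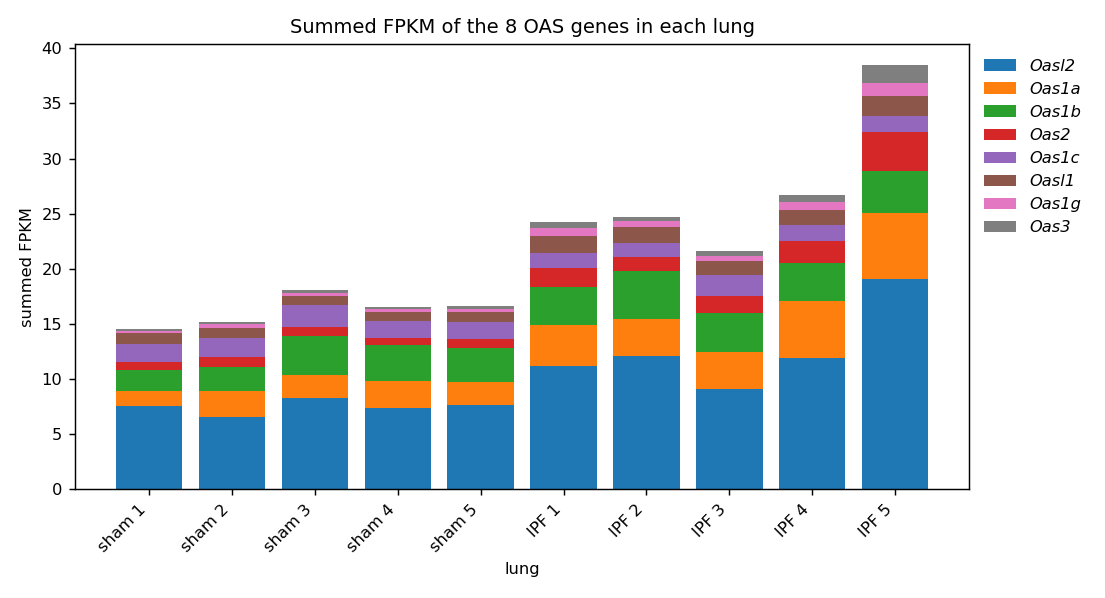
Summed FPKM of the 8 OAS genes (vertical axis, from 0) in each lung, stacked by gene. The 5 sham lungs sit between 14.6 and 18.1 and the 5 IPF lungs between 21.6 and 38.5, with Oasl2 as the largest block in every bar.

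Some lungs held the same place in several genes. IPF replicate 5 was the highest of all 10 lungs in 6 of the 8 genes and IPF replicate 3 was the lowest IPF lung in 5, while sham replicate 1 was the lowest sham lung in 3, namely Oas1a, Oas1b and Oas1g. IPF replicate 5 also stood out in neutrophil markers, with a summed FPKM of 300.9 beside 52.9 to 74.2 in the other IPF lungs and 15.2 to 72.7 in the sham lungs. In each of the other 4 IPF lungs the same 6 genes were also above every sham lung.

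Of 4 genes of oligoadenylate turnover and RNA decay, none passed by limma or by limma voom, and at an unadjusted p under 0.05 there was 1, Xrn1, with a lower level. Abce1, a ribosome recycling factor, had a log2 fold change of 0.08 and Pde12, which degrades oligoadenylates, had -0.10 (limma adjusted p = 0.532 and 0.588). Dcp2 and Xrn1, enzymes of RNA decay, had log2 fold changes of -0.07 and -0.24 (limma adjusted p = 0.659 and 0.176). The median of the list was -0.08.

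Other genes of the sensing of foreign RNA and DNA rose in part. Beside sensors, the list holds signalling adaptors such as Mavs, and Adar, which edits RNA. Of 11 genes tested, 3 were higher and none lower, with a median log2 fold change of 0.27. Dhx58, which encodes LGP2, was 0.72 higher in log2 units (0.00291 as limma's adjusted p), Ddx58, which encodes RIG-I, by 0.31 (0.0324 by limma) and Tlr3 by 0.29 (0.0418 by limma). Eif2ak2, the kinase PKR that answers double-stranded RNA beside OAS, had a log2 fold change of 0.24 and did not pass (limma adjusted p = 0.312).

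Transcripts of interferons themselves were scarcely seen. Of 21 interferon genes found in the table, 15 had no read in any lung, and 1, Ifnk, was high enough to be tested and did not pass (0.0572 ± 0.0608 against 0.210 ± 0.293 FPKM, limma adjusted p = 0.733). Ifng averaged 0.104 ± 0.0662 and 0.0600 ± 0.110 FPKM, and Ifnb1 0.0151 ± 0.0337 and 0 FPKM (SD, n = 5 each). At this depth a difference in their transcripts was not detectable.

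Of 19 interferon receptors and signalling genes, 9 were higher in the IPF group and none lower, with a median log2 fold change of 0.32. Stat2 and Irf9, of the complex that drives OAS transcription, were among them, with a log2 fold change of 0.32 for Stat2 (limma adjusted p = 0.0287) and 0.49 for Irf9 (limma adjusted p = 0.0189). The smallest adjusted p was that of Irf1, an interferon-induced activator (log2 fold change 0.36, limma adjusted p = 0.00344), and Socs1, a feedback inhibitor of the pathway, rose most (log2 fold change 1.26, limma adjusted p = 0.0142). Irf7, Ifnar2, Ifngr2 and Socs3 were also higher.

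Of 29 other interferon-induced antiviral genes tested, 19 were higher and none lower, with a median log2 fold change of 0.51. The smallest adjusted p values were those of Rtp4 (log2 fold change 1.06), Sp100 (0.63) and Cmpk2 (0.73), at 0.00179, 0.00179 and 0.00189 by limma. Isg15, a ubiquitin-like modifier, averaged 28.5 ± 6.35 against 12.0 ± 2.87 FPKM (SD, n = 5 each), 1.26 higher in log2 units (limma adjusted p = 0.00373). Ifit2, with a log2 fold change of 0.12, and Ifit3, with 0.27, did not pass (limma adjusted p = 0.598 and 0.391). Over all the pathway lists, 31 of 66 genes tested were higher and 0 lower by limma, beside 3.71% and 2.14% of all genes. At an unadjusted p under 0.05 the counts were 38 and 2, beside 11.2% and 8.3% of all genes, and limma voom called 32 and 0, beside 4.12% and 3.05%.

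**Figure D4:**
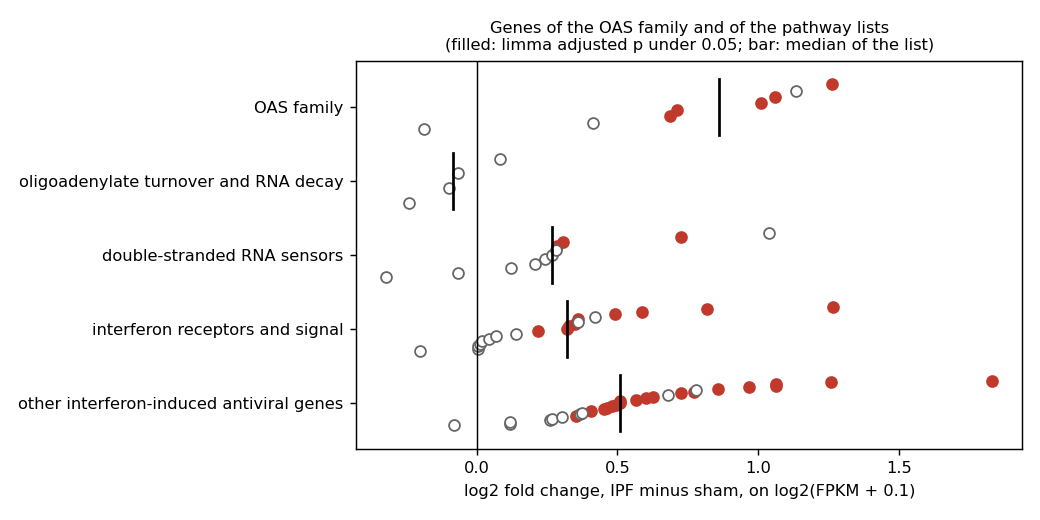
Log2 fold change, IPF minus sham, on log2(FPKM + 0.1) (horizontal axis) of each tested gene of the OAS family and of 4 pathway lists, with the median of each list as a bar and filled points for limma adjusted p under 0.05. The list of oligoadenylate turnover and RNA decay lies around 0 with a median of -0.08 and no filled point, and the OAS family has a median of 0.86.

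Markers of leukocytes that can carry OAS transcripts also differed between the groups. All 5 B cell markers passed and were higher (Ms4a1 and Cd79a with the smallest adjusted p), with a summed FPKM of 31.7 to 47.8 in the IPF lungs and 17.1 to 28.0 in the sham lungs. Of 6 natural killer cell markers 4 were higher (Prf1, Klra8 and Ncr1 with the smallest adjusted p, and Gzma), with sums of 11.4 to 17.5 and 4.00 to 9.12. Of 8 monocyte markers 4 were higher (Ly6c2, Plac8, Treml4 and Ccr2), although the sums of all 8, mostly Ace, overlapped at 249 to 403 and 319 to 358. At an unadjusted p under 0.05, 6 of them were higher and 1 lower, beside 11.2% and 8.3% of all genes. The lower one was Ace (log2 fold change -0.28, limma adjusted p = 0.254). Of 7 T cell markers 1 was higher by limma (Cd4) and 0 by limma voom, with 4 at an unadjusted p under 0.05 and sums of 16.0 to 20.9 and 10.1 to 15.6. Of 6 markers of plasmacytoid dendritic cells, which are strong makers of type I interferon, 1 was higher, Bst2, which is itself induced by interferon, and Siglech was at 0.384 to 1.42 and 0.271 to 0.444 FPKM. None of 8 macrophage, 7 neutrophil and 7 epithelial markers passed by limma, of which 2, 5 and 0 were higher at an unadjusted p under 0.05, beside 11.2% of all genes. Limma voom called 1 epithelial marker, Sftpb, lower and none of the others. Of 7 endothelial markers 1 passed by limma (Cldn5, higher). Limma voom called 2 of the 7 higher, beside 4.12% of all genes, and 2 were higher at an unadjusted p under 0.05. No marker was at 0 in all lungs. The part of these cells in the OAS levels was not tested.

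The 5 genes outside the family whose pattern over the 10 lungs was nearest to that of the summed OAS FPKM were Xaf1, Rtp4, Ifi44, Ifi204 and Irf9. They were found among 13439 genes whose FPKM averaged 1 or more, by the root mean square distance between log2 values centred and scaled for each gene, which ran from 0.163 for Xaf1 to 0.222 for Irf9. By the same measure Oasl2 was at 0.185 from the sum of which it is the largest part, and Oas1c, at 1.66, was the farthest of the 8 genes. Xaf1 was between 6.19 and 10.0 FPKM in the IPF lungs and between 5.20 and 6.02 in the sham lungs, and Rtp4 between 19.2 and 33.8 and between 9.76 and 12.8. In all 5 genes IPF replicate 5 was the highest lung and the groups did not overlap. The sum has both traits and the genes were chosen for being near it, so this is not separate evidence.

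**Figure D5:**
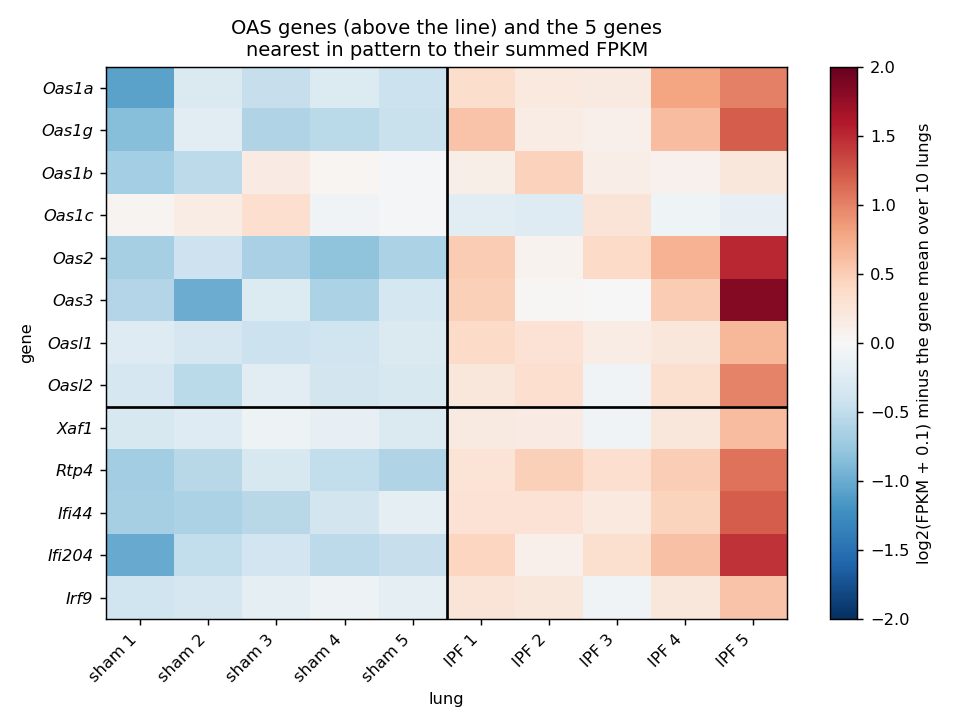
Log2(FPKM + 0.1) minus the gene's mean over the 10 lungs (colour), for the 8 OAS genes above the line and the 5 genes nearest in pattern to their sum below it, in each sham and IPF lung (columns). IPF replicate 5 is darkest in most rows, the Oas1b groups overlap, and in Oas1c 4 of the 5 IPF lungs are below every sham lung.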

How the data were processed

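RNA-seq of whole mouse lung was analysed in 10 samples, 5 IPF and 5 sham, grouped by their titles. The authors used Fastp for trimming, HISAT2 for alignment and StringTie for quantification, and what they deposited is an FPKM value for each gene in each lung. The sample records name other tools and another library kit (Bowtie 0.12.2 and NEBNext Ultra, where the methods name KAPA mRNA HyperPrep). The methods name GRCm39, but the positions of 8 of 8 genes in the table overlap those of RefSeq in GRCm38.p6, so positions are given in GRCm38.

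Within 0.01 reads, each FPKM value stood for a whole number of reads, which were recovered from its step size. FPKM is not a count, so the main test was limma 3.58.1 in R 4.3.3 with a trended prior and no covariate, which compared the groups on log2(FPKM + 0.1) in genes whose FPKM averaged 0.1 or more. This scale understates the change of low genes. P-values were adjusted over all genes by the Benjamini-Hochberg method, at the study's limits of 0.05 and a log2 fold change of 1. The count-based test of the study was not repeated. The fit was tested on simulated data. The alternatives were other pseudocounts (1 and 0.01), filters (none, or 1) and scalings, a replicate block, lung weights, limma voom on the recovered reads and each lung left out in turn. The labels do not say that the samples of a group come from separate litters or cages, so p-values measure the spread between these 10 lungs. Reads shared by paralogs or overlapping genes may have been assigned to either, since the strand setting is not given in the sources used here. Errors and read numbers cover counting and the spread between lungs only.

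Promoter letters were taken from RefSeq, and shared stretches of 150 bases from GENCODE vM39 transcripts. Genes of the pathway and cell type lists were named when they were among the 3 with the smallest adjusted p of their list or belonged to the list of oligoadenylate turnover and RNA decay. Some genes of the lists are counted there but not reported here by name. Others were named after their values were seen. The family, the lists and the tests were chosen with earlier results of these data known.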

Additional observations from a re-analysis of the deposited data

Results flagged for a closer look

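Oas1a in sham replicate 1, at 1.35 FPKM, was set apart from the other sham lungs, of which the next lowest was at 2.11. Its gap was 0.714 of the whole range of the group, above Dixon's limit of 0.71 for 5 samples. Oas3 in IPF replicate 5, at 1.62 FPKM, was set apart from the other IPF lungs, of which the next highest was at 0.590, with a gap of 0.832 of the range. In all 26 groups of values were tested in this way, and chance flags about 1 in 20 groups.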

How the results depend on the processing

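The 5 genes with an adjusted p under 0.05 were 3 to 5 when each lung was left out in turn, with 3 without IPF replicate 4 and 3 without sham replicate 4. The 3 past both limits were 0 with a pseudocount of 1, 1 with IPF replicate 5 and sham replicate 1 both left out, and 1 to 3 when each lung was left out, with 1 without IPF replicate 4, without IPF replicate 5 or without sham replicate 1. A pseudocount of 1 shrinks the change of low genes by its construction. For the other settings the cause was not tested. Over all genes, 1196 had an adjusted p under 0.05, which was 775 to 1620 when each lung was left out (775 without IPF replicate 4), and 233 passed both limits, which was 74 with a pseudocount of 1 and 154 with a mean FPKM of at least 1.

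Oas1a, Oas2 and Oasl1 kept an adjusted p under 0.05 by limma in all 20 alternatives, Oasl2 in 16 of 20 and Oas1g in 11 of the 19 in which it was tested, while Oas3 reached it in 2 of 19 and Oas1b and Oas1c in 0 of 20. With a mean FPKM of at least 1, Oas1g and Oas3 were not tested. No alternative turned a direction. The summed FPKM stayed 1.46 to 1.76 times higher in the IPF group for the 8 genes and 1.33 to 1.55 times for the Oas1 genes. With 8 to 16 reads per sham lung, Oas1g is the gene most limited by depth.

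Samples that share a replicate number did not deviate together (correlations of -0.02 to 0.095), so the numbers do not pair them. With a replicate block, 4 of the 8 genes had an adjusted p under 0.05 by limma and 2 passed both limits. Oas1g lost its call (adjusted p = 0.0590), and no other gene of the 8 changed its call.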
